A study of Canis lupus familiaris with 77 samples.

Results

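The miRNAs described here are cfa-miR-23a, cfa-miR-23b, cfa-miR-24, cfa-miR-27a and cfa-miR-27b, the mature products of the miR-23, miR-24 and miR-27 clusters. They were chosen by name and are 5 of the 650 miRNAs detected. Small RNA was sequenced (miR-seq) from 16 organs and fluids of untreated male Marshall Beagle dogs, 10 months old, that were perfused with saline before the organs were taken. Each of 14 tissues (bone marrow, brain, duodenum, heart, ileum, jejunum, kidney, liver, lung, pancreas, plasma, skeletal muscle of the quadriceps, testis and thymus) had 5 libraries, colon had 4 and sciatic nerve had 2, which gave 76. The organs came from 5 dogs, but the labels tie no library to a dog, and the sciatic nerve RNA was pooled at least in part, so p-values measure the spread between libraries. RNA of bone marrow and plasma was isolated by other procedures than that of the solid organs, so tissue and isolation cannot be told apart for these. The paper reports low RNA integrity for plasma, bone marrow and a subset of kidney samples, though kidney samples of low and high integrity mapped alike. It names thymus as the tissue with the most variable mapping. The part of RNA integrity in the levels was not tested. Libraries held between 157871 and 7896424 reads aligned to miRNAs, with a median of 1364823. Levels are in reads-per-million units of these (RPM), and since mature miRNAs have nearly the same length, RPM was compared between miRNAs without a length correction. A floor of 3 reads for detection stood at 0.380 to 19.0 RPM per library, and the lowest count of any of these miRNAs in any library was 33 reads, so all 5 were detected in all 76 libraries. Of the 52 libraries of 11 tissues with a list of marker miRNAs (duodenum, jejunum and ileum shared a list), 4 held under 10% of their tissue's median level of it. These were skeletal muscle replicate 4 with 4.54 RPM of miR-206 (others 258 to 817), duodenum replicate 4 with 5496 RPM of miR-192 and miR-194 (others 23054 to 429085), and testis replicates 2 and 3 with 4872 and 583 RPM of miR-34c and miR-202 (tissue median 52577). Calls of the 5 miRNAs were made with and without these 4 libraries, an exclusion chosen after seeing the data.

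MicroRNAs are short RNAs that guide Argonaute proteins to messenger RNAs, whose translation and stability they lower, and pairing of the target with the seed at the 5′ end of the miRNA decides most targets. In mammals miR-23, miR-27 and miR-24 are cut from shared primary transcripts of a pair of paralogous loci: the a cluster encodes miR-23a, miR-27a and miR-24-2, and the b cluster encodes miR-23b, miR-27b and miR-24-1 within an intron of a protein-coding gene. The a and b forms of miR-23 share a seed, as do those of miR-27, and each pair differs by a base near the 3′ end, whereas miR-24-1 and miR-24-2 give the same mature miR-24. These miRNAs are known in endothelium and blood vessel growth, in muscle, in fat cell differentiation, where miR-27 acts on PPARG, and in blood cell formation.

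In the gene table used for names (assembly UU_Cfam_GSD_1.0, not the CanFam3.1 build of the counts), MIR24-1, MIR27B and MIR23B were direct neighbours and were spanned by FANCC, a Fanconi anaemia gene, and by C1H9orf3. MIR23A, MIR27A and MIR24-2 were direct neighbours too, with no gene spanning them and ZSWIM4 beside them. A read of miR-24 cannot be assigned to a cluster, its row in the data also carries the name of hsa-miR-3074-5p, an antisense product of the miR-24-1 locus, and how reads of miR-23 or miR-27 that end before the differing base were shared between the a and b forms was not tested.

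Levels within the clusters were far from equal. miR-27b was the highest of the 5 in all 76 libraries and made up 62.5% to 94.5% of their reads, with a median of 82.0%. It ranked between 3 and 18 among all miRNAs of a library. Its median over the 76 libraries was 19654 RPM, against 1227 RPM for miR-23a, 1192 RPM for miR-23b, 1132 RPM for miR-27a and 616 RPM for miR-24, which was the lowest of the 5 in 52 libraries. Together the 5 miRNAs took 0.689% to 6.76% of the reads of a library. Each had a tissue median above 100 RPM in all 16 tissues. Between the highest and the lowest tissue median, miR-23a varied 25.1-fold, miR-24 18.6-fold, miR-23b 9.93-fold, miR-27a 8.93-fold and miR-27b 6.70-fold. Over 60 miRNAs whose median passed 100 RPM in all tissues the median of this fold was 18.6, and only 6 of the 60 varied less than miR-27b. In the plot of RPM by tissue the levels stand library by library.

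**Figure D1:**
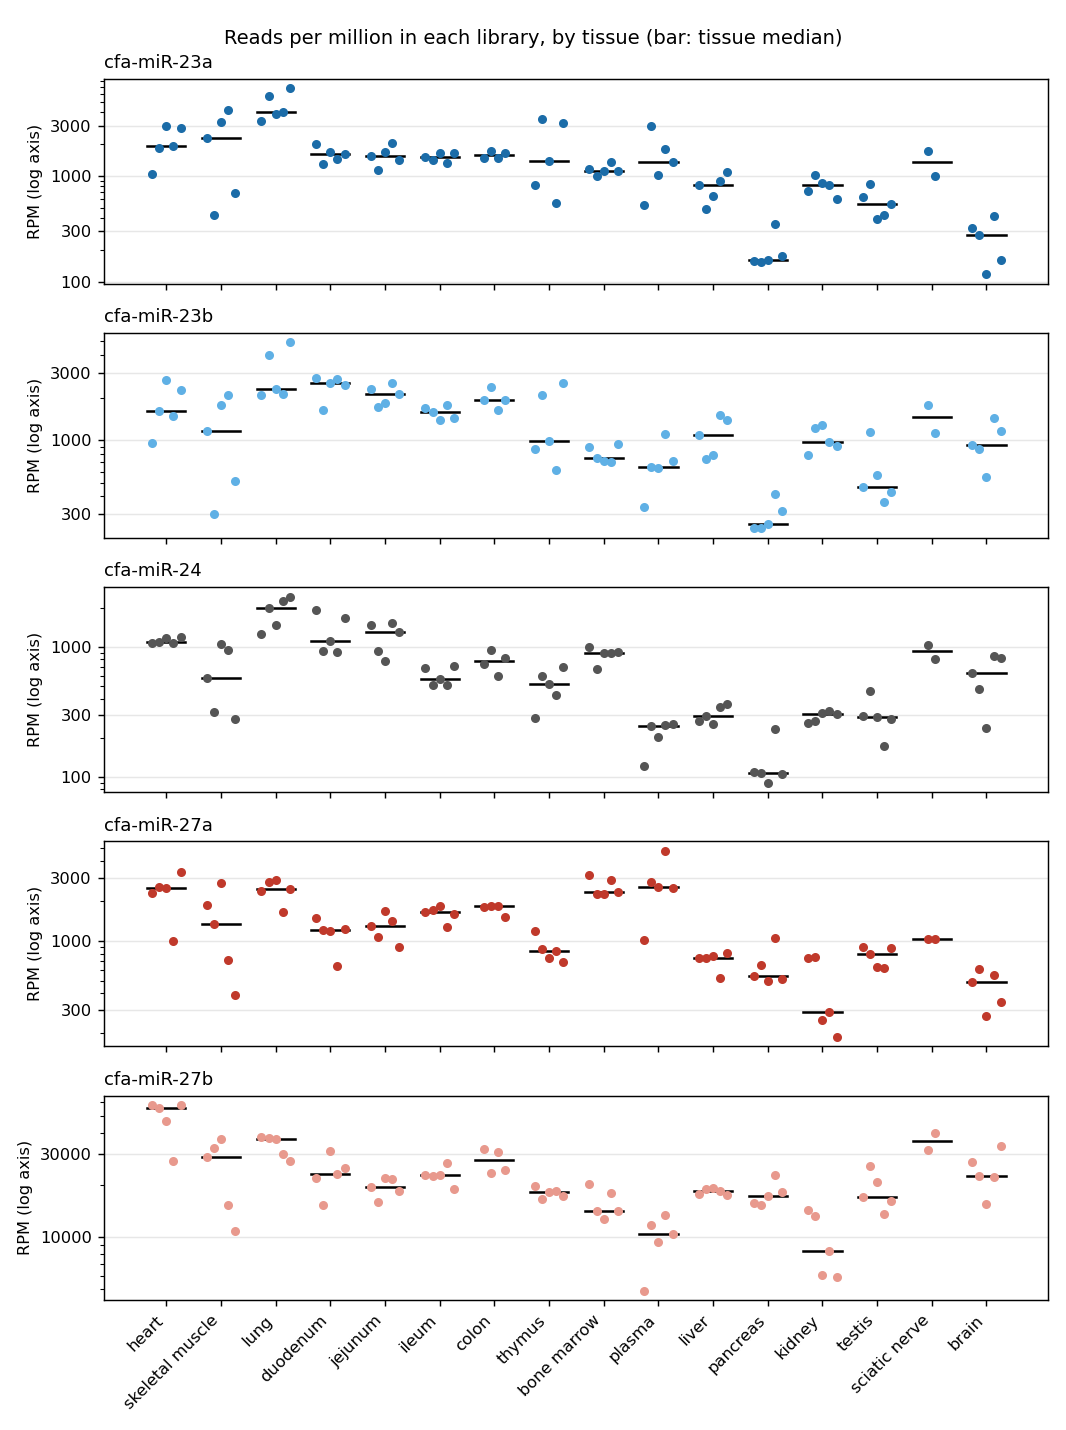
Level in RPM (log axis) of the 5 miRNAs in each of the 76 libraries, with tissues on the x axis, one point per library and a bar at the tissue median. Pancreas was lowest for miR-23a, miR-23b and miR-24, kidney for miR-27a and miR-27b, and skeletal muscle had the widest spread within a tissue for all 5.

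The tissue profile was tested with edgeR, as each tissue against the mean of the other 15 tissues, with Benjamini-Hochberg adjustment over the 480 miRNAs that passed a filter on low counts, which all 5 passed. Log2 fold changes are given with their SE from this fit, which scaled libraries by the trimmed mean of M values (TMM). Over all miRNAs and tissues 38.9% of these tests were past an adjusted p of 0.05, 24.6% higher and 14.3% lower, and against this miR-27a was called in 11 of 16 tissues, miR-24 in 10, miR-23a and miR-23b in 9 each and miR-27b in 7. Scaling mattered: with libraries scaled by their size only, the median log2 fold change of all 480 miRNAs moved by between -0.59 in kidney and 1.09 in brain, and calls that this ended or turned are named with each miRNA below. In bulk tissue a lower level cannot be told apart from fewer of the cells that hold the miRNA. The grid of log2 fold changes shows all 5 miRNAs in all tissues.

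**Figure D2:**
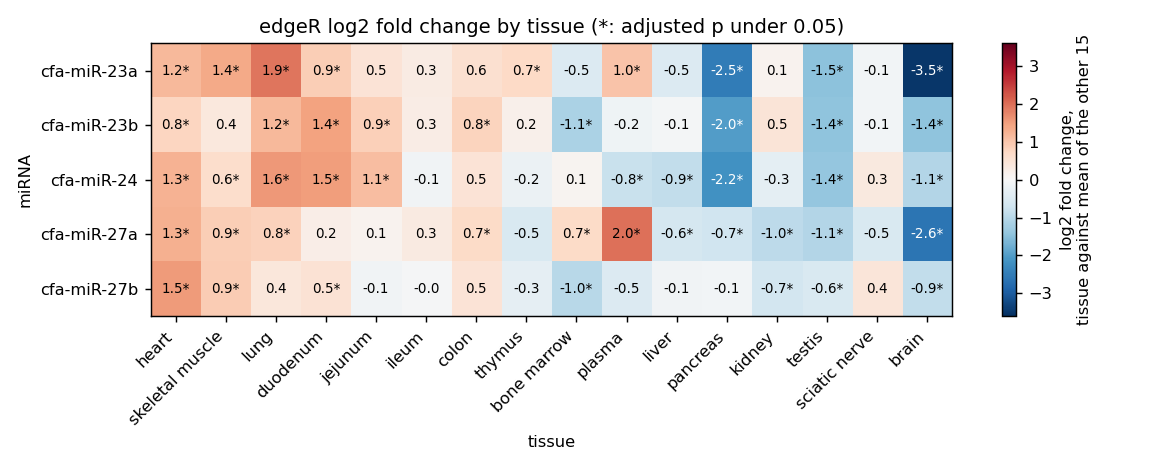
edgeR log2 fold change of each miRNA (rows) in each tissue (columns) against the mean of the other 15 tissues, with red for higher and blue for lower, and an asterisk where the adjusted p was under 0.05. With this TMM scaling heart was higher and testis and brain were lower for all 5 miRNAs, with the lowest value, -3.51, for miR-23a in brain. With scaling by library size miR-24 and miR-27b in brain turned, and miR-27b in testis was not called.

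miR-23a, a product of the a cluster, was highest in lung. The 5 lung libraries held 3279.7, 5753, 3891, 4001 and 6767 RPM, against 117 to 4232 RPM in the 71 others, so that 1 skeletal muscle library and 1 thymus library reached the range of lung. Skeletal muscle followed by median, with libraries that spread 9.97-fold, at 2267, 424, 3268, 4232 and 697 RPM. Heart held 1043, 1824, 2986, 1906 and 2835 RPM. Lung rose by 1.94 ± 0.20 (SE, adjusted p = 1.6e-12) on the log2 scale, skeletal muscle by 1.38 ± 0.21 (SE, adjusted p = 1.3e-07) and heart by 1.16 ± 0.22 (SE, adjusted p = 7.82e-06). The lowest 3 tissues were pancreas, brain and testis. Pancreas libraries held 156, 152, 159, 352 and 176 RPM and brain libraries 324, 278, 117, 414 and 159 RPM, and these groups overlapped each other. Testis held 633, 835, 389, 428 and 539.8 RPM. All 3 were called lower, with log2 fold changes of -3.51 ± 0.33 (SE, adjusted p = 1.79e-15) in brain, -2.53 ± 0.30 (SE, adjusted p = 9.66e-11) in pancreas and -1.48 ± 0.28 (SE, adjusted p = 7.37e-06) in testis. By median RPM brain stood above pancreas, but with TMM scaling brain was lower than pancreas by 0.92 ± 0.33 (SE, adjusted p = 0.0119).

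The other 10 tissues had mean RPM (± SD) in order of their medians of duodenum with 1617 ± 271, colon with 1588 ± 114, jejunum with 1563 ± 335, ileum with 1518 ± 142, thymus with 1867 ± 1338, sciatic nerve with 1366 ± 517, plasma with 1529 ± 918, bone marrow with 1152 ± 135, liver with 783 ± 230.2 and kidney with 801 ± 153. miR-23a was also called higher in plasma, by 1.04 ± 0.22 (SE, adjusted p = 3.18e-05) (1.66 without sciatic nerve replicate 1), in duodenum, by 0.88 ± 0.22 (SE, adjusted p = 0.00131), and in thymus, by 0.71 ± 0.23 (SE, adjusted p = 0.0125). In thymus the libraries were split, with 3440 and 3144 RPM in replicates 2 and 5 against 559 to 1376 RPM in the other 3, and without replicate 2 the value was 0.48 with an adjusted p = 0.155, without replicate 5 0.43 with an adjusted p = 0.223 (edgeR). Scaled by library size only, plasma had 0.42 (adjusted p = 0.23) and duodenum 0.51 (adjusted p = 0.213) in edgeR, and neither was called. Among all 120 pairs of tissues, miR-23a differed in 75, where the average over all miRNAs was 41.9%. Of the 15 pairs of neighbours in the order of medians 5 differed and 10 did not, and lung did not differ from skeletal muscle, at 0.53 ± 0.33 (SE, adjusted p = 0.226) in edgeR. The order is by RPM but the test used TMM scaling, so a called pair can go against the order. For miR-23a sciatic nerve minus plasma, at -1.06, and brain minus pancreas, at -0.92, did so.

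miR-23b, the paralogue of miR-23a in the b cluster, had its highest median in duodenum, followed by lung and jejunum. Duodenum libraries held 2759, 1639, 2556, 2695 and 2466 RPM, of which replicate 2 stood well below the other 4. Lung held 2094, 3972, 2297, 2122 and 4909 RPM and jejunum 2308, 1723, 1830.2, 2530.2 and 2124 RPM, and the 3 tissues overlapped. Their log2 fold changes were 1.45 ± 0.22 (SE, adjusted p = 1.13e-07) in duodenum, 1.17 ± 0.22 (SE, adjusted p = 2.11e-05) in lung and 0.85 ± 0.23 (SE, adjusted p = 0.00216) in jejunum. At the low end pancreas held 238, 238, 257, 417 and 317 RPM, testis 464, 1149, 563, 364 and 428 RPM and plasma 335, 648, 639.9, 1108 and 711 RPM. Pancreas was called lower, at -2.01 ± 0.30 (SE, adjusted p = 7.95e-08), and its replicate 4 stood above the other 4. Testis was called lower too, at -1.44 ± 0.29 (SE, adjusted p = 2.29e-05), although its replicate 2 held 1149 RPM. Plasma was not called, at -0.15 ± 0.26 (SE, adjusted p = 0.802), but was called lower with library size scaling, at -0.87 (adjusted p = 0.00736 in edgeR).

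Mean RPM (± SD) in the 10 remaining tissues, again in order of medians, were colon with 1963 ± 302, heart with 1791 ± 672, ileum with 1568 ± 159.8, sciatic nerve with 1446 ± 450.3, skeletal muscle with 1169 ± 776, liver with 1101 ± 345, thymus with 1416 ± 838, kidney with 1035 ± 212, brain with 985 ± 329.6 and bone marrow with 799.8 ± 109. Colon was called higher at 0.80 ± 0.26 (SE, adjusted p = 0.0151) and heart at 0.78 ± 0.23 (SE, adjusted p = 0.00462), and brain was called lower at -1.44 ± 0.29 (SE, adjusted p = 9.11e-06) and bone marrow at -1.13 ± 0.28 (SE, adjusted p = 0.000651). The colon call was lost without colon replicate 2, with 0.71 with an adjusted p = 0.0871, and the heart call without heart replicate 3, with 0.61 with an adjusted p = 0.0533, or replicate 5, with 0.58 with an adjusted p = 0.0663 (edgeR). Without any 1 of bone marrow replicates 1, 3, 4 and 5 the bone marrow value lay between -0.69 and -0.58 and was not called, with adjusted p of 0.0551 to 0.112 in edgeR. Scaled by library size only, brain had -0.32 (adjusted p = 0.304) and bone marrow -0.64 (adjusted p = 0.0632), so both calls were lost (edgeR). In the pairwise tests miR-23b differed in 64 of 120 pairs (53.3%, against 41.9% over all miRNAs), and in 3 of 15 pairs of neighbours. Of these neighbours, bone marrow minus plasma went against the order of medians, at -0.92.

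miR-24, which both clusters encode, was highest in lung, jejunum and duodenum. Lung libraries held 1246, 1981, 1463, 2240.0 and 2439.9 RPM, jejunum 1475, 932, 779, 1535 and 1312 RPM and duodenum 1928, 932, 1113, 918 and 1676 RPM, with wide overlap. Heart came next and had the tightest libraries of the higher tissues, at 1068, 1085, 1165, 1062 and 1183 RPM. All 4 were called higher, lung by 1.55 ± 0.19 (SE, adjusted p = 2.96e-10), duodenum by 1.50 ± 0.19 (SE, adjusted p = 5.78e-10), heart by 1.26 ± 0.19 (SE, adjusted p = 9.81e-08) and jejunum by 1.12 ± 0.19 (SE, adjusted p = 2.45e-06). The lowest levels were in pancreas, plasma and testis. Pancreas held 109.6, 106, 90.3, 235 and 105 RPM, plasma 120.1, 245, 201, 249.7 and 256 RPM and testis 294, 456, 286, 173 and 279 RPM. Only pancreas replicate 4 reached the levels of plasma and testis. All 3 were called lower, with log2 fold changes of -2.17 ± 0.27 (SE, adjusted p = 1.71e-10) in pancreas, -1.38 ± 0.25 (SE, adjusted p = 3.15e-06) in testis and -0.81 ± 0.24 (SE, adjusted p = 0.00263) in plasma.

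In the other tissues mean RPM (± SD) of miR-24 were heart with 1113 ± 57.1, sciatic nerve with 923 ± 169, bone marrow with 877 ± 120.0, colon with 777 ± 148, brain with 604 ± 257, skeletal muscle with 636 ± 358, ileum with 597 ± 96.6, thymus with 506 ± 161, kidney with 293 ± 26.4 and liver with 305 ± 47.7. Liver was called lower, at -0.90 ± 0.24 (SE, adjusted p = 0.0016), and skeletal muscle higher, at 0.63 ± 0.21 (SE, adjusted p = 0.0095). Brain was called lower with TMM scaling, at -1.06 ± 0.24 (SE, adjusted p = 7.32e-05), but its direction turned with scaling by library size only, to 0.053 (adjusted p = 0.91 in edgeR), where the median of all 480 miRNAs in brain was 1.22. Skeletal muscle had 0.13 (adjusted p = 0.776) under that scaling, and was not called in edgeR without skeletal muscle replicate 1, at 0.49 with an adjusted p = 0.0782, or replicate 3, at 0.28 with an adjusted p = 0.347, nor without sciatic nerve replicate 1, at 0.43 with an adjusted p = 0.108, or replicate 2, at 0.39 with an adjusted p = 0.144. With library size scaling plasma was -1.53 (adjusted p = 1.03e-06 in edgeR). The plasma call with TMM scaling also rested on these sciatic nerve libraries in edgeR: it became -0.29 with an adjusted p = 0.339 without replicate 1 and -0.32 with an adjusted p = 0.276 without replicate 2. miR-24 differed in 79 of 120 pairs of tissues (65.8%, against 41.9% over all miRNAs), the most of the 5, and in 4 of 15 pairs of neighbours. Of these neighbours, brain minus skeletal muscle went against the order of medians, at -1.58.

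miR-27a, of the a cluster, was the only 1 of the 5 with its highest median in plasma. Plasma libraries held 1008, 2769, 2566, 4803 and 2525 RPM, heart 2305, 2552, 2530.2, 998 and 3339.8 RPM and lung 2388, 2795, 2895, 1643 and 2456 RPM. The groups overlapped, and plasma replicate 1 and heart replicate 4 stood well below the other libraries of their tissue. With TMM scaling the log2 fold changes were 1.99 ± 0.18 (SE, adjusted p = 2.9e-16) in plasma, 1.29 ± 0.19 (SE, adjusted p = 2.99e-08) in heart and 0.82 ± 0.20 (SE, adjusted p = 0.000566) in lung, and plasma had 1.29 with library size scaling. Bone marrow followed at 3173, 2276, 2243, 2893 and 2322 RPM, with little spread, and was called higher by 0.70 ± 0.20 (SE, adjusted p = 0.0028). The lowest 3 tissues by median were kidney, brain and pancreas. Kidney was split, with 740.3, 758, 252, 287 and 188 RPM, so that replicates 1 and 2 stood well above the other 3. Brain held 486, 617, 272, 551 and 348 RPM and pancreas 545, 653, 497, 1059.5 and 512 RPM. Brain was -2.63 ± 0.27 (SE, adjusted p = 1.05e-13), kidney -0.95 ± 0.24 (SE, adjusted p = 0.000698) and pancreas -0.73 ± 0.23 (SE, adjusted p = 0.00763), all called lower.

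Mean RPM (± SD) of miR-27a elsewhere were bone marrow with 2581 ± 425, colon with 1748 ± 162, ileum with 1613 ± 214, skeletal muscle with 1409 ± 935, jejunum with 1272 ± 305, duodenum with 1154 ± 307, sciatic nerve with 1031 ± 8.01, thymus with 867 ± 198, testis with 765 ± 131 and liver with 720.1 ± 111. Skeletal muscle, at 0.88 ± 0.20 (SE, adjusted p = 0.000189), and colon, at 0.70 ± 0.22 (SE, adjusted p = 0.0147), were called higher, and testis, at -1.05 ± 0.24 (SE, adjusted p = 0.000139), and liver, at -0.64 ± 0.23 (SE, adjusted p = 0.0218), lower. Several of these calls were close to the threshold in edgeR. Kidney was lost without kidney replicate 5, at -0.69 with an adjusted p = 0.0632, and skeletal muscle without replicate 3, at 0.52 with an adjusted p = 0.0638 (edgeR). Colon was lost without colon replicate 1, at 0.68 with an adjusted p = 0.0606, or replicate 3, at 0.67 with an adjusted p = 0.102, and liver without liver replicate 4, at -0.53 with an adjusted p = 0.107, or replicate 5, at -0.63 with an adjusted p = 0.051 (edgeR). Pancreas was lost without any 1 of 8 libraries of other tissues (brain replicate 4, colon replicate 3, kidney replicate 5, plasma replicates 3 and 5, both of sciatic nerve and skeletal muscle replicate 2), with values of -0.56 to -0.37. Library size scaling gave 0.27 (adjusted p = 0.435) in skeletal muscle and 0.60 (adjusted p = 0.103) in colon, so that these calls were lost (edgeR). miR-27a differed in 76 of 120 pairs of tissues (63.3%, against 41.9% over all miRNAs) and in 4 of 15 pairs of neighbours. Of these neighbours, brain minus kidney went against the order of medians, at -1.57.

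miR-27b, of the b cluster, had the highest level and the least variation between tissues. Heart libraries held 57877, 55414, 46913, 27319 and 57973 RPM, of which 4 lay above all 71 other libraries, whose highest was 39878 RPM in sciatic nerve, while heart replicate 4 lay within their range. Lung held 37885, 37475, 36966, 30025 and 27652 RPM and the 2 sciatic nerve libraries 31839 and 39878 RPM. Heart rose by 1.52 ± 0.19 (SE, adjusted p = 2.11e-10), and differed from lung by 1.04 ± 0.30 (SE, adjusted p = 0.00368) in edgeR. Lung, at 0.41 ± 0.21 (SE, adjusted p = 0.148), and sciatic nerve, at 0.45 ± 0.32 (SE, adjusted p = 0.289), were not called. Kidney was lowest, followed by plasma and bone marrow. Kidney held 14361, 13298, 6047, 8273 and 5906 RPM with the same split as for miR-27a, plasma 4891, 11728, 9322, 13374 and 10437 RPM and bone marrow 20368, 14204, 12771, 17926 and 14232 RPM. Kidney was called lower at -0.66 ± 0.23 (SE, adjusted p = 0.0186) and bone marrow at -0.98 ± 0.24 (SE, adjusted p = 0.000434), but plasma was not called at -0.49 ± 0.23 (SE, adjusted p = 0.0663), and with library size scaling it was, at -1.17 (adjusted p = 3.31e-06 in edgeR).

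Elsewhere miR-27b had mean RPM (± SD) of skeletal muscle with 24950.4 ± 11235, colon with 27805 ± 4522, duodenum with 23384 ± 5814, ileum with 22879 ± 2804, brain with 24162 ± 6622, jejunum with 19554 ± 2515, liver with 18394 ± 814, thymus with 18018 ± 1227, pancreas with 17869 ± 3038 and testis with 18758 ± 4765. Skeletal muscle was called higher at 0.91 ± 0.20 (SE, adjusted p = 0.00013), and duodenum at 0.53 ± 0.21 (SE, adjusted p = 0.0463), and testis was called lower at -0.55 ± 0.23 (SE, adjusted p = 0.0401). Brain was called lower at -0.90 ± 0.24 (SE, adjusted p = 0.000563) with TMM scaling and turned with scaling by library size only, to 0.20 (adjusted p = 0.382 in edgeR). Under that scaling skeletal muscle had 0.25 (adjusted p = 0.319), duodenum 0.15 (adjusted p = 0.71), testis -0.19 (adjusted p = 0.457) and bone marrow -0.45 (adjusted p = 0.0724) in edgeR, and none was called. Leaving out 1 library ended the duodenum call for 59 of the 76 libraries, with values of 0.30 to 0.56, and the bone marrow call for 41, with values of -0.53 to -0.42. The testis call was lost in edgeR without brain replicate 1, at -0.49 with an adjusted p = 0.0737, or brain replicate 4, at -0.34 with an adjusted p = 0.202, and the kidney call without kidney replicate 5, at -0.47 with an adjusted p = 0.223, or any 1 of 5 libraries of other tissues (brain replicate 1, colon replicate 3, plasma replicates 3 and 5, skeletal muscle replicate 2), at -0.56 to -0.52. Without brain replicate 1 miR-27b was called in 4 tissues in place of 7. miR-27b differed in 52 of 120 pairs of tissues, the fewest of the 5 and near the share over all miRNAs (43.3% against 41.9%), and in 3 of 15 pairs of neighbours. Of these neighbours, brain minus jejunum went against the order of medians, at -0.71.

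Read by tissue, heart had all 5 miRNAs higher, where 21.9% of all miRNAs tested were called higher, and this held in edgeR under scaling by library size and by size factors (88 and 113 of all 480 higher). Their median log2 fold change in heart was 1.26, against -0.14 over all 480 miRNAs. Lung had 4 of 5 higher (20.4% of all), as had duodenum (21.2%) and skeletal muscle (26.5%). But with library size scaling 2 remained called in duodenum (miR-23b and miR-24, with 66 of all 480 higher) and 1 in skeletal muscle (miR-23a, with 83 of 480). Without the 4 libraries low in their own markers heart still had all 5 higher (106 of all 477 tested) and testis all 5 lower, at -2.59 to -1.49 (91 of 477). Duodenum and skeletal muscle then had 3 higher each (105 of 477 in either) and brain 2 lower (miR-23a and miR-27a, with 86 of 477). miR-23a in skeletal muscle was then 1.13 ± 0.26 (SE, adjusted p = 0.000374 in edgeR), and miR-24 in skeletal muscle and miR-27b in duodenum were not called. Under this exclusion sciatic nerve had 1 higher (149 of all 477), jejunum 3 higher (142), kidney and liver 3 lower each (74 and 77) and thymus 1 higher and 1 lower (98 and 35). Brain and testis had all 5 lower, where 28.1% and 16.2% of all miRNAs were called lower. But miR-24 and miR-27b in brain turned with scaling by library size, and miR-27b in testis was not called with it. Pancreas had 4 of 5 lower (19.2%). The median of the 5 in testis was -1.38, against 0.32 over all miRNAs, and in brain -1.44, against 0.13. In brain the values for miR-23a (-2.31) and miR-27a (-1.48) stayed called under library size scaling (64 of all 480 lower), whereas miR-23b, miR-24 and miR-27b did not. Both kidney and liver had 2 of 5 lower (10.2% and 12.3% of all), jejunum and colon 2 of 5 higher (27.5% and 18.5%), and thymus 1 (21.2%). Plasma had 2 higher (27.9%) and 1 lower (24.6%), and bone marrow 1 higher (16.5%) and 2 lower (24.6%). In ileum and sciatic nerve, where 27.9% and 39.2% of all miRNAs were called in either direction, 0 of the 5 were called by edgeR, and 0 had an unadjusted p under 0.05 in either tissue. DESeq2's Wald test called 0 of the 5 in both as well. The share of higher among all calls moved with scaling by library size from 61.6% to 80.9% in brain, from 67.6% to 81.7% in testis and from 61.7% to 39.9% in skeletal muscle, and rose in lung to 81.2%. The plot of the 2 scalings shows brain as the tissue that moved most.

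**Figure D3:**
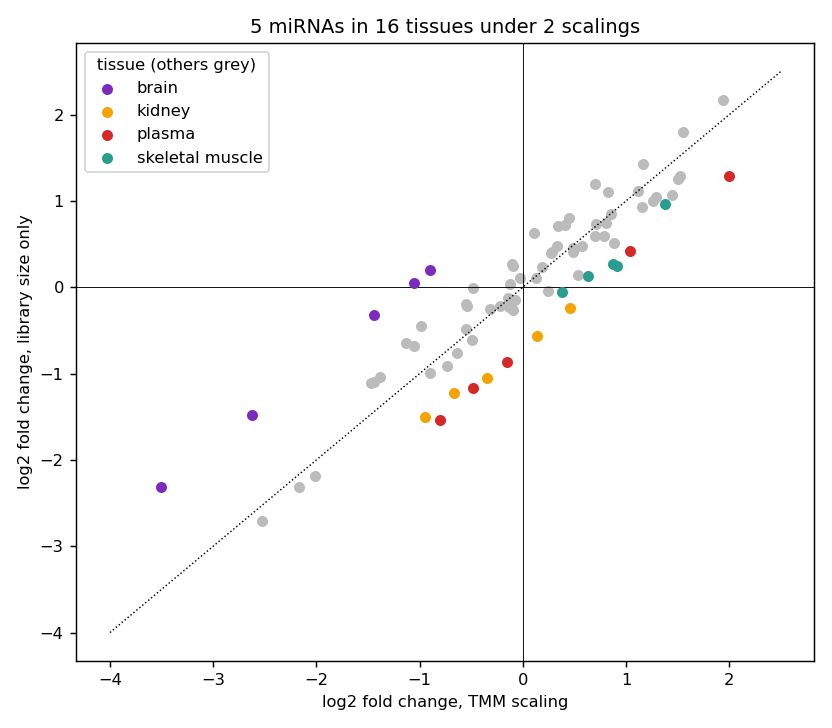
Log2 fold change of the 5 miRNAs in each of 16 tissues against the mean of the other 15, with TMM scaling on the x axis and scaling by library size only on the y axis, one point per miRNA and tissue and a dotted line where both are equal. The 5 brain points lie above the line and 2 of them, miR-24 and miR-27b, pass from below 0 to above it.

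Markers of tissues and cell types were read beside these values. Each defining miRNA of brain (miR-124, miR-9), liver (miR-122), heart (miR-499, miR-208b), skeletal muscle (miR-206), pancreas (miR-216a, miR-217), testis (miR-34c, miR-202) and bone marrow (miR-223) had its highest median in the labelled tissue. The other lists were less particular. miR-192 and miR-194, used for duodenum, jejunum and ileum, were highest in jejunum, with liver second for miR-192 at 176166 RPM. Of the sciatic nerve list, miR-338 was highest in sciatic nerve but miR-219-3p in brain, at 276 RPM. miR-126, the marker of endothelium, held 40874 to 64176 RPM in lung and 12724 to 46484 in heart, against 5306 to 13577 in brain, 5945 to 11817 in pancreas and 2134 to 6307 in testis. But the paper also lists miR-126 among the most expressed miRNAs of bone marrow and thymus. In bone marrow miR-23b and miR-27b were called lower, and in thymus only miR-23a was called higher. The epithelial markers miR-200b and miR-200c had their highest medians in pancreas, at 43.7 and 1834 RPM. Both markers of smooth muscle, miR-143 and miR-145, summed to 85877 to 615456 RPM in duodenum and 112635 to 156242 in lung, against 14838 to 39282 in pancreas, but also to 135117 to 441136 in colon and 75315 to 287874 in testis. Both leukocyte markers, miR-142 and miR-150, summed to 13065 to 37493 RPM in plasma and 9589 to 17836 in bone marrow, against 99.5 to 841 in heart and 129 to 531 in brain. They were high in ileum too, where miR-142 had a median of 13936 RPM and miR-150 its highest median, 1067 RPM. The part of any of these cell types in the levels of miR-23, miR-24 and miR-27 was not tested.

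Plasma and bone marrow, the fluid and the blood-forming tissue, were also set against each other, and 4 of the 5 miRNAs differed in edgeR, where 43.1% of all miRNAs did. miR-24 was higher in bone marrow, whose libraries held 992, 674, 897, 905 and 919.7 RPM, all above the plasma libraries, by 0.86 ± 0.30 (SE, adjusted p = 0.0153). miR-23a, at -1.43 ± 0.34 (SE, adjusted p = 0.000322), miR-27a, at -1.21 ± 0.30 (SE, adjusted p = 0.000514), and miR-23b, at -0.92 ± 0.35 (SE, adjusted p = 0.0262), were lower in bone marrow with TMM scaling, and miR-27b, at -0.47 ± 0.30 (SE, adjusted p = 0.222), was not called. Only miR-24 kept its call and direction when libraries were scaled by their size, at 2.03 ± 0.33 (SE, adjusted p = 4.13e-07) in edgeR. Under that scaling miR-23a had -0.41 ± 0.40 (SE, adjusted p = 0.525), miR-27a -0.084 ± 0.35 (SE, adjusted p = 1), miR-23b 0.21 ± 0.36 (SE, adjusted p = 0.782) and miR-27b 0.68 ± 0.27 (SE, adjusted p = 0.0358) in edgeR, so that miR-23b and miR-27b turned to the higher side in bone marrow and miR-27b was called.

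The study's criteria for a tissue enriched (TE) miRNA asked for a mean RPM over 5 times the mean of all other libraries together with an adjusted rank-sum p under 0.05, and were applied here without a filter on expression. None of the 5 miRNAs was TE in any of the 16 tissues, where 3.90% of the 7801 combinations of a tissue and a miRNA with a read in it were TE and 43.2% of the 650 miRNAs were TE somewhere. The nearest was miR-23a in lung, with a fold of 3.75. In either direction, the exact rank-sum test gave an adjusted p under 0.05 in 3 tissues for miR-23a and 3 for miR-23b. It did so in 4 for miR-24, 5 for miR-27a and 4 for miR-27b (16.7% over all miRNAs). Several of these tissues were lower than the other libraries, not higher. They were brain and pancreas for miR-23a, pancreas and testis for miR-23b, and pancreas and plasma for miR-24. For miR-27a they were brain and kidney, and for miR-27b kidney and plasma. By the criterion for highly tissue enriched miRNAs, a tissue median over 5 times the highest library elsewhere, the highest value was 1.39 for miR-27b in heart.

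The ratio of the paralogues within a library does not depend on how libraries are scaled. For miR-23 the 2 forms were nearly level: the reads of miR-23b per read of miR-23a had a median of 1.10 and miR-23b exceeded miR-23a in 43 of 76 libraries. For miR-27 the b form exceeded the a form in all 76 libraries, with a median of 19.2 reads of miR-27b per read of miR-27a and a range of 2.78 to 95.9. Each tissue was compared with all other libraries by an exact two-sided rank-sum test of the log2 ratio, adjusted over 32 tests (16 tissues and both ratios).

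Brain had the highest ratio of miR-23b to miR-23a. Its log2 ratios were 1.50, 1.65, 2.21, 1.78 and 2.87, and all 5 lay above the highest of the 71 other libraries, 0.90 in duodenum. The brain mean was 2.00 ± 0.55 (SD, n = 5), 2.05 above that of the others (exact rank-sum test, adjusted p = 1.73e-06). Brain was also highest for miR-27b to miR-27a, with log2 ratios of 5.80, 5.19, 5.83, 5.34 and 6.58, a mean of 5.75 ± 0.54 (SD, n = 5) and a difference of 1.69 (exact rank-sum test, adjusted p = 2.31e-06), and here its lowest library was within the range of sciatic nerve. In linear terms the median brain library held 3.44 reads of miR-23b per read of miR-23a and 55.8 reads of miR-27b per read of miR-27a. In brain miR-23a and miR-27a, the a forms, also had the lowest median RPM of the 5.

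Plasma stood at the other end for both pairs by mean. For miR-23b to miR-23a its median log2 ratio, -0.70, was above that of skeletal muscle, -0.88. The log2 ratio of miR-27b to miR-27a in plasma was 2.28, 2.08, 1.86, 1.48 and 2.05, below every other library, with a mean of 1.95 ± 0.30 (SD, n = 5) and a difference of -2.37 (exact rank-sum test, adjusted p = 1.73e-06). Bone marrow came next, at 2.68, 2.64, 2.51, 2.63 and 2.61, with a mean of 2.61 ± 0.065 (SD, n = 5), above all plasma libraries and below all those of the 14 other tissues, whose lowest was 3.49 in lung (difference -1.66, adjusted p = 0.0018, exact rank-sum test). The log2 ratio of miR-23b to miR-23a in plasma was -0.67, -2.18, -0.66, -0.70 and -0.92, so replicate 2 lay far below the other 4. Its mean was -1.03 ± 0.65 (SD, n = 5) and its difference -1.19 (adjusted p = 0.0018, exact rank-sum test). For this pair bone marrow had a mean of -0.53 ± 0.28 (SD, n = 5) and was not called (adjusted p = 0.0833, exact rank-sum test). Leukocyte and red cell markers were high in both, with red cell markers (miR-451 and miR-144) summing to 54918 to 120487 RPM in plasma and 30976 to 54846 RPM in bone marrow. Of the leukocyte markers, miR-142 was high in ileum too, with a median of 13936 RPM. Ileum was not called for miR-27b to miR-27a (adjusted p = 0.162, exact rank-sum test). The part of these markers in the ratios was not tested.

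The pairs did not always move together. Skeletal muscle and lung were lower for miR-23b to miR-23a but not called for miR-27b to miR-27a. In skeletal muscle the log2 ratios of miR-23b to miR-23a were -0.97, -0.50, -0.88, -1.02 and -0.44, all below 0, with a difference of -0.91 from the other libraries (adjusted p = 0.00452, exact rank-sum test). A permutation test of means gave adjusted p of 0.0785 for skeletal muscle, 0.127 for lung and 0.387 for pancreas. The same libraries had log2 ratios of miR-27b to miR-27a of 3.97, 4.61, 3.74, 4.41 and 4.79, which differed from the others by 0.15 (adjusted p = 0.946, exact rank-sum test). miR-23a spread 9.97-fold and miR-23b 6.97-fold between these 5 libraries, while the log2 ratio stayed between -1.02 and -0.44. Lung had -0.65, -0.53, -0.76, -0.91 and -0.46 for miR-23b to miR-23a, a difference of -0.80 (adjusted p = 0.0155, exact rank-sum test), which without lung replicate 4 was -0.74 (adjusted p = 0.0530), and -0.37 for miR-27b to miR-27a (adjusted p = 0.167, exact rank-sum test). Pancreas was called higher for miR-23b to miR-23a by 0.56 (adjusted p = 0.0319, exact rank-sum test), but without any 1 of replicates 1, 2, 3 and 5 it was not, at 0.50 to 0.56. Whether the pairs differed from each other within a tissue was not itself tested. The plot of paralogue ratios shows each library.

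**Figure D4:**
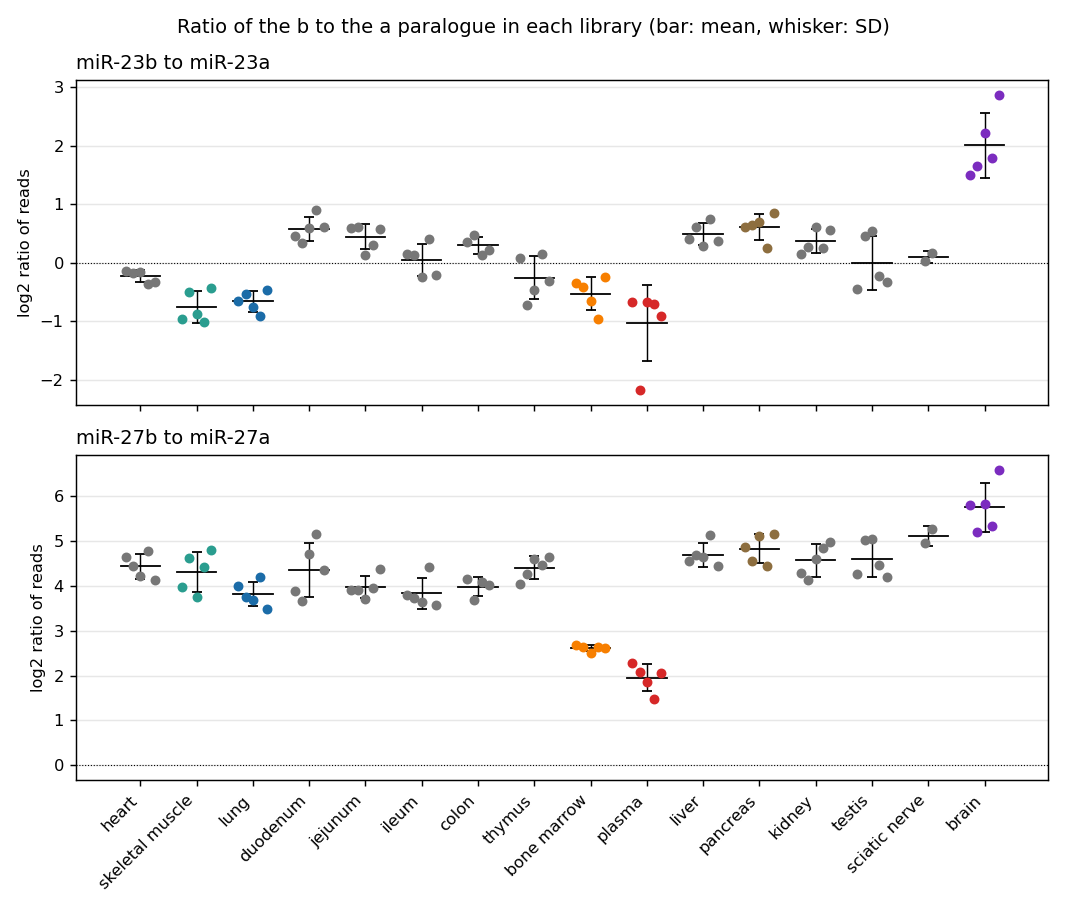
Log2 ratio of reads of the b form to the a form in each library for miR-23 (top) and miR-27 (bottom), by tissue on the x axis, with the tissue mean as a bar, the SD as whiskers, colour for tissues that passed the test for at least 1 ratio, and a dotted line at equal reads. Brain is highest in both panels and plasma has the lowest mean in both, though skeletal muscle has the lower median for miR-23. Bone marrow sits next to plasma for miR-27.

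The opposite strands of the hairpins were listed under human names and were far rarer. hsa-miR-23a-5p and hsa-miR-23b-5p had 49 and 37 reads in all 76 libraries together, with none in most libraries, and hsa-miR-24-1-5p had 237, with at least 1 in 55 libraries, so levels by tissue are not given for these. hsa-miR-27b-5p had 3526 reads in all, hsa-miR-24-2-5p 2604 and hsa-miR-27a-5p 955. These arms are informative because hsa-miR-24-2-5p comes from the a cluster alone, unlike mature miR-24.

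hsa-miR-27b-5p was highest in testis, where miR-27b itself was called lower with TMM scaling but not with library size scaling. The testis libraries held 102, 80.2, 79.9, 150.3 and 153 RPM of it, against 0 to 131 RPM in the 71 others. In edgeR testis was higher by 1.95 ± 0.23 (SE, adjusted p = 2.32e-11), while miR-27b was -0.55 ± 0.23 (SE, adjusted p = 0.0401). That miR-27b call was also lost without either of 2 single libraries. Without the 4 libraries low in their own markers it held, at -1.49. Reads of miR-27b per read of hsa-miR-27b-5p were 168, 323, 262, 90.7 and 106 in the 5 testis libraries, and 333 to 3234 in the 62 other libraries with more than 3 reads of hsa-miR-27b-5p, so the groups did not overlap. This ratio was read after the data were seen and carries no test. Plasma held 16 reads of hsa-miR-27b-5p against 71027 of miR-27b in its 5 libraries, and bone marrow 11 against 15548. Heart, at 2.00 ± 0.22 (SE, adjusted p = 3.14e-12), sciatic nerve, at 1.56 ± 0.34 (SE, adjusted p = 0.000121), and skeletal muscle, at 1.20 ± 0.26 (SE, adjusted p = 0.000118), were also called higher for hsa-miR-27b-5p, and plasma, at -2.90 ± 0.39 (SE, adjusted p = 1.74e-09), lower, in edgeR. Bone marrow, at -1.65 ± 0.39 (SE, adjusted p = 0.000335), and kidney, at -0.86 ± 0.28 (SE, adjusted p = 0.0127), were called lower too (edgeR), but not without bone marrow replicate 4 (-0.97) or kidney replicate 5, respectively. Brain was called lower with TMM scaling, at -0.68 ± 0.27 (SE, adjusted p = 0.0222) in edgeR, and turned with library size scaling, to 0.36 (adjusted p = 0.229), and it was not called without brain replicate 3 or 4 or sciatic nerve replicate 1. Scaled by library size only, testis had 2.40 (adjusted p = 1.25e-14), and skeletal muscle, at 0.58 (adjusted p = 0.0804), was no longer called (edgeR).

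hsa-miR-27a-5p was highest in lung, at 29.1, 29.8, 61.7, 56.8 and 42.4 RPM, and in edgeR lung was higher by 2.69 ± 0.31 (SE, adjusted p = 6.64e-11). Bone marrow was higher by 1.58 ± 0.45 (SE, adjusted p = 0.00304) with libraries of 37, 12.6, 0, 58.2 and 23 RPM, and brain was lower, at -4.94 ± 0.65 (SE, adjusted p = 3.43e-10), with 4 reads in its 5 libraries, against 4534 of miR-27a, and -4.07 (adjusted p = 2.64e-07) with library size scaling. The bone marrow value rested on 25 reads and was 2.40 without bone marrow replicate 3, and kidney was also called lower, at -1.26 ± 0.48 (SE, adjusted p = 0.0315) in edgeR, a call lost without any 1 of 8 libraries. Summed over libraries, lung held 55.6 reads of miR-27a per read of hsa-miR-27a-5p and plasma 398. hsa-miR-24-2-5p was highest in heart, at 65.3, 71.4, 72.2, 19.6 and 98.9 RPM, where edgeR gave 2.55 ± 0.22 (SE, adjusted p = 1.85e-16). Skeletal muscle followed at 1.64 ± 0.26 (SE, adjusted p = 2.51e-07) and lung at 1.24 ± 0.24 (SE, adjusted p = 3.18e-05), the tissues in which miR-23a was highest too. In plasma, where miR-24 was called lower, hsa-miR-24-2-5p was called higher at 1.08 ± 0.26 (SE, adjusted p = 0.000243) with libraries of 3.64, 38.5, 10.1, 33.9 and 11.8 RPM, which overlapped most tissues, but with library size scaling it was 0.51 (adjusted p = 0.215) and not called (edgeR). In brain it was -2.69 ± 0.35 (SE, adjusted p = 2.5e-10) in edgeR, and -1.53 (adjusted p = 0.000636) with library size scaling. It was further called lower in bone marrow, at -2.11 ± 0.48 (SE, adjusted p = 0.000195), sciatic nerve, kidney and pancreas, with the last 3 at -1.34 to -0.88, and higher in colon and ileum, at 0.82 and 0.67, in edgeR. Each of these was lost without at least 1 library (1 to 9 of the 76), except bone marrow, and with library size scaling colon was 0.74 (adjusted p = 0.136) and ileum 0.81 (adjusted p = 0.0516), not called (edgeR).

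**Figure D5:**
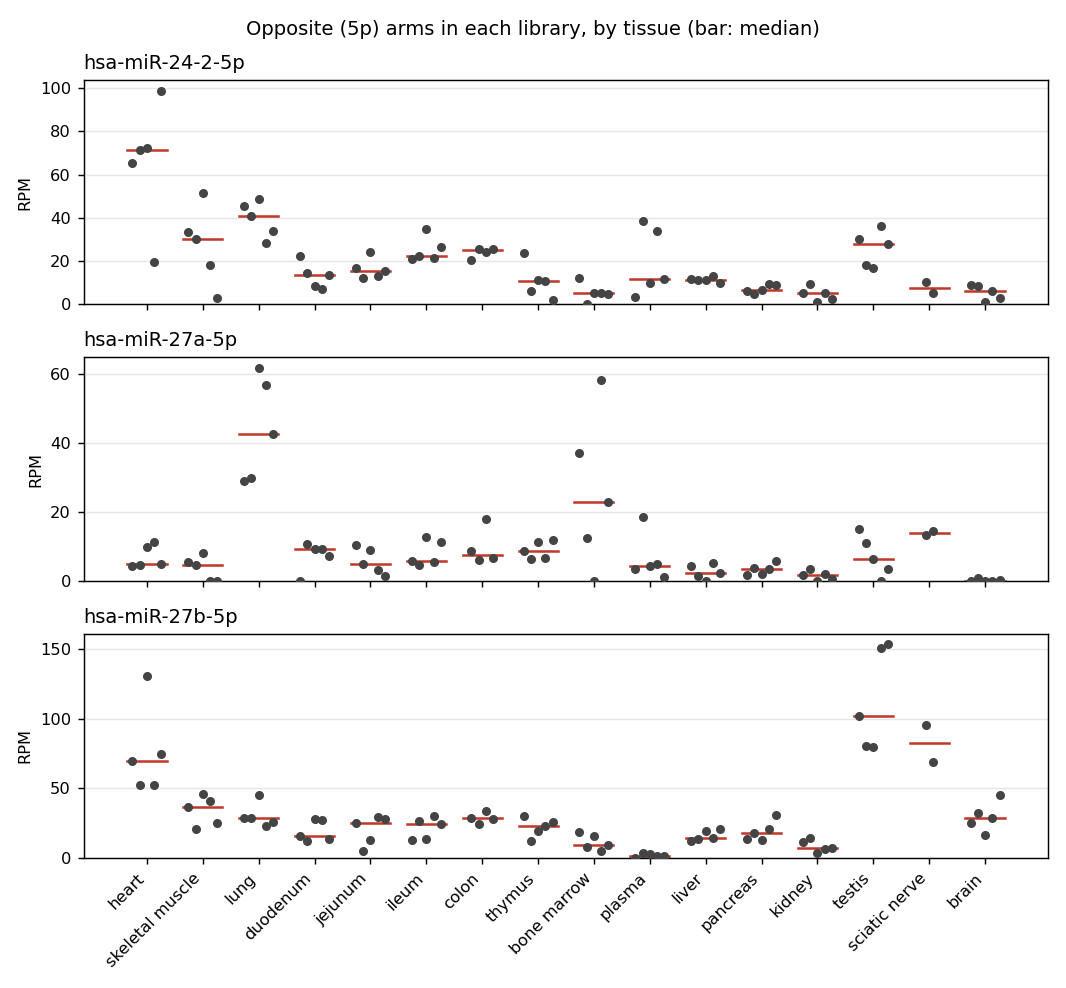
Level in RPM of 3 opposite-strand (5p) miRNAs in each library, by tissue on the x axis, with a point per library and a bar at the tissue median. hsa-miR-24-2-5p was highest in heart, hsa-miR-27a-5p in lung, and hsa-miR-27b-5p in testis, where its 5 libraries ran from 79.9 to 153 RPM.

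Across the 16 tissue medians of RPM the members tracked one another to different degrees. Spearman's rho, a description over tissues that share libraries, was 0.84 for miR-23a with miR-23b and 0.82 for miR-23b with miR-24, but 0.37 for miR-27a with miR-27b, 0.38 for miR-23b with miR-27a and 0.68 for miR-23a with miR-27a. With TMM-scaled RPM the rho of miR-27a with miR-27b was 0.61, so its size depended on scaling. Among 266 miRNAs whose median passed 100 RPM in at least 1 tissue, the 5 members themselves left aside, the patterns most like miR-23b were those of miR-145 (0.85) and miR-143 (0.81), the smooth muscle miRNAs, and miR-214 (0.71). For miR-27b they were miR-133a (0.79) and miR-1 (0.71), both muscle miRNAs, and its own opposite strand hsa-miR-27b-5p (0.69). miR-27a was most like miR-142 (0.69), a blood cell miRNA, then hsa-miR-133a-5p (0.65) and miR-208b (0.64), while miR-23a was most like miR-145 (0.66), miR-133a (0.65) and miR-1 (0.63). miR-24 was most like miR-342 (0.77), miR-574 (0.74) and let-7b (0.70).

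miR-23a is used beside miR-451, a red cell miRNA, to read red cell RNA in plasma, because miR-23a is taken to vary little with red cell lysis. Plasma held 98.7, 39.5, 96.6, 45.8 and 59.3 reads of miR-451 per read of miR-23a and bone marrow 46.3, 30.4, 44.3, 22.1 and 34.8, so plasma replicates 2 and 4 lay within the range of bone marrow and the other 3 above it. Median ratios elsewhere ran from 0.276 in ileum to 15.5 in pancreas, where the miR-23a level was the lowest of all tissues. In plasma miR-23a itself ran from 535 to 2948 RPM, a 5.51-fold spread between libraries.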

How the data were processed

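Small RNA libraries of 76 samples of 16 tissues were analysed, with groups taken from the labels. The authors used OSA to align reads, with no mismatch allowed, to CanFam3.1 and counted those overlapping mature miRNAs of dog, rat and human from miRBase, and the deposited table holds raw counts and RPM, the count scaled by the library's reads aligned to miRNAs. The counts of a library summed to 0.0449% to 1.16% more than its listed total. The table also holds 1 sample name with no tissue label of its own, which was not used, and 1 colon sample had no values. A miRNA missing from a library was set to 0.

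The miRNAs were matched by the first name of their entry. They and all lists (opposite strands, markers) were chosen with earlier results of these data known. Counts were fitted with edgeR 4.0.16 (quasi-likelihood, TMM, low-count filter, robust) over all samples, each tissue against the mean of the other 15 and all 120 pairs, with Benjamini-Hochberg adjustment within a contrast. Folds in RPM and log2 paralogue ratios (pseudocount 0.5 reads) were tested by exact two-sided rank-sum tests (scipy 1.17.1). Single values are printed for the highest 3 and lowest 3 tissues by median RPM of each of the 5 miRNAs and for their calls past an adjusted p of 0.05, and calls of opposite strands partly as ranges. On data simulated for the lung contrast over 480 miRNAs, edgeR recovered 22.4% of 1.5-fold, 46.5% of 2-fold and 82.3% of 4-fold changes. The simulated tissues did not differ apart from the changes in lung, unlike the real ones. These shares cover miRNAs of all levels and are not the power for the 5 miRNAs described. Alternatives were DESeq2 1.42.0, other scalings and filters, thinning to the smallest library and leaving out each library. The floor of 3 reads concerns detection only and is not the counting error of a level.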

Additional observations from a re-analysis of the deposited data

Results flagged for a closer look

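Of 105 groups of 4 or 5 libraries examined, 9 held a library whose gap to the others exceeded Dixon's critical value, where chance gives about 1 in 20. Pancreas replicate 4 stood high for 3 of the 5 miRNAs, with 352 RPM of miR-23a (others 152 to 176), 235 RPM of miR-24 (others 90.3 to 110) and 1060 RPM of miR-27a (others 497 to 653). For miR-23b, duodenum replicate 2 was low at 1639 RPM (others 2466 to 2759) and testis replicate 2 high at 1149 RPM (others 364 to 563). For miR-27a, colon replicate 5 was low at 1507 RPM (others 1809 to 1840) and liver replicate 4 low at 527 RPM (others 745 to 811). The log2 ratio of miR-23b to miR-23a was -2.18 in plasma replicate 2 (others -0.92 to -0.66), and that of miR-27b to miR-27a was 4.41 in ileum replicate 4 (others 3.56 to 3.79). The cause of these gaps was not tested.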

How the results depend on the processing

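Among calls and ratios of single tissues, scaling by library size turned miR-24 in brain to 0.053 and miR-27b in brain to 0.20 (log2) and ended 11 other calls, whereas DESeq2's Wald test ended 1 (miR-27b in duodenum), its size factors 2 (miR-27b in duodenum, miR-27a in pancreas), no filter on low counts 2 (miR-27b in duodenum, miR-24 in skeletal muscle), and the other samples pooled as reference none. All 5 heart calls held under every one of these, and so did miR-23a and miR-27a in brain. Thinning to the smallest library ended the calls of miR-23b and miR-27b in bone marrow, miR-27b in testis and the ratio of miR-23b to miR-23a in pancreas. The following exclusions were chosen after seeing the data. Without sciatic nerve, miR-24 and miR-27b in brain, miR-27a in colon and miR-27b in testis were not called, and without plasma and bone marrow, miR-27b in duodenum and testis, miR-27a in pancreas and miR-24 in skeletal muscle were not, so that miR-27b was called in 4 tissues in place of 7, of which bone marrow was lost because it was not in the fit. Without the 4 libraries low in their own markers, miR-23b, miR-24 and miR-27b in brain, miR-27b in duodenum, miR-27a in pancreas and miR-24 in skeletal muscle were not called. Leaving out each library in turn, miR-27b was called in 4 (without brain replicate 1) to 9 tissues. The permutation test of means called 2 tissues for the ratio of miR-23b to miR-23a, where the rank-sum test called 5 (lung, pancreas and skeletal muscle were lost). Of the 3 miRNAs most like miR-23a, 1 was shared when tissue means replaced medians and 0 with TMM-scaled RPM, and of those most like miR-24, 1 with TMM-scaled RPM. Under DESeq2's Wald test 53.4% of all calls were higher, against 63.1% in edgeR. No paired analysis was possible because the labels tie no library to a dog, and replicate numbers given in accession order pair no samples. Depth limits the opposite strands, several of which had few reads in most libraries.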
